A study of Mus musculus with 48 samples.

Results

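Among 50795 merged H3K4me3 regions of 3 sorted skeletal populations, 2646 carried a peak in 2 or 3 KO lists and in no WT list, and these are called KO-only regions here. They were found by joining all peaks of the 6 H3K4me3 lists that overlapped by at least 1 base. The rule takes 5.21% of the merged regions, and the mirror rule (2 or 3 WT lists and no KO list) takes 264 regions, or 0.52%. Members were chosen by the H3K4me3 peak calls of both genotypes, so their H3K4me3 values are given as a description and were not tested. Regions called in 2 or 3 lists of each genotype, 27206 in all, served as the reference.

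The cells were sorted from limbs of mice of the C57BL/6 strain, 3 days after birth, and were labelled as skeletal stem cells (SSC), bone, cartilage and stromal progenitors (BCSP) and the pre-BCSP population (pBCSP). All mice carried floxed Ptip alleles, without Cre (WT, Ptipf/f) or with Cre under control of Col2a1, which encodes the chief collagen of cartilage (KO, Ptipf/f;Col2a1-cre). Each population and genotype had 1 H3K4me3 library, 1 H3K4me1 library, 2 H3K27ac libraries and 2 RNA libraries. Cre driven by Col2a1 removes Ptip only from cells that have expressed it or descend from such cells, and nothing in the labels says whether replicates came from separate animals, so p-values measure only the spread between these samples. The number of cells behind each ChIP library and the number of mice are not given in the labels.

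H3K4me3 is the histone mark found at most active and poised promoters, where it lies in broad islands over CpG-rich DNA. H3K4me1 is spread more widely and is the typical mark of enhancers, and H3K27ac marks the enhancers and promoters that are active. PTIP, the product of Ptip (current symbol Paxip1), is a subunit of the complexes of the methyltransferases KMT2C and KMT2D, which place H3K4me1 at enhancers, whereas the SETD1 and KMT2A/B complexes place most H3K4me3.

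Only a small minority of KO-only regions lay at an annotated start, so the promoters that did are shown first, as the regions whose sequence the annotation supports. The 250 bases before a start are printed 5′ to 3′ on the gene's strand, from RefSeq (GRCm38.p6), with every CG dinucleotide in capitals. Scg3 had the highest mean H3K4me3 fold enrichment of the members with a start inside, Apobec2 had one of the 10 widest members, Cnn1 and Rec8 were protein-coding genes with a peak in all 3 KO lists, and Rap1gap was the gene within 1000 bases of a member whose RNA rose. These genes were picked after their values were seen.
Scg3: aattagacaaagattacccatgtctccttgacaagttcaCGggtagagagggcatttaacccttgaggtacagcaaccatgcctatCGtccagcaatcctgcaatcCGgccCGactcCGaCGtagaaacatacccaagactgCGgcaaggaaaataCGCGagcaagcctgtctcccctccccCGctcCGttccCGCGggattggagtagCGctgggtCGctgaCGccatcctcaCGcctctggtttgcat
Apobec2: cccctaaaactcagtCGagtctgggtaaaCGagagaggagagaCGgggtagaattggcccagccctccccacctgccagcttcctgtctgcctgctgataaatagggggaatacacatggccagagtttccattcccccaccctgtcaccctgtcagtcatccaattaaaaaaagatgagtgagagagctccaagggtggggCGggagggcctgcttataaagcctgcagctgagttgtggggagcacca
Cnn1: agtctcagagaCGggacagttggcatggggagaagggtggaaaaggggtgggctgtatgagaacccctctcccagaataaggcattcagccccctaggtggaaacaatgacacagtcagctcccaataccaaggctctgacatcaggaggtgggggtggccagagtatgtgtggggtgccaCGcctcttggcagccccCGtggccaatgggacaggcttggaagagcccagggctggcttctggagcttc
Rec8: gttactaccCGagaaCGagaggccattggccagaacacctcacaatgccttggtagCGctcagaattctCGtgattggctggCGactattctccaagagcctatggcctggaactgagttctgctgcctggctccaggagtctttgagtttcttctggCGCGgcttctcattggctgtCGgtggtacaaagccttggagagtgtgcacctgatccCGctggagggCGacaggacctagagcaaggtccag
Rap1gap: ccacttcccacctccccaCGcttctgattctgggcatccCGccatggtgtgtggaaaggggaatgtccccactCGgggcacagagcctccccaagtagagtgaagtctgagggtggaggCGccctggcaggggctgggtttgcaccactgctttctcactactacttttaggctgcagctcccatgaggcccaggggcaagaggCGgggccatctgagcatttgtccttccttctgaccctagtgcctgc
Beside them stand promoters inside regions called in both genotypes. Paxip1 is the targeted gene. Shox2, a homeobox factor of limb growth, has the nearest start to 1 member, though 234270 bases away.
Paxip1: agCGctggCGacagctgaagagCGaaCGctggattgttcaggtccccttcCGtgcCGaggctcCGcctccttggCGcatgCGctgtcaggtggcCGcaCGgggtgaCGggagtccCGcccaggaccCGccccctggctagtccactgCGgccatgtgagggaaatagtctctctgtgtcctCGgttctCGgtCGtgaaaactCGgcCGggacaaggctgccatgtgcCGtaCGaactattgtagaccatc
Shox2: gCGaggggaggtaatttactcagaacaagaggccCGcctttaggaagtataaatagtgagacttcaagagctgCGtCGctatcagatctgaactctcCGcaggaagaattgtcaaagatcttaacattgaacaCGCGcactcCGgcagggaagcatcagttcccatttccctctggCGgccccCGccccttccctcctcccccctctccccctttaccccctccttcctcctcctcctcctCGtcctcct

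The printed stretch of Scg3, the gene of a secretory granule protein, lies at chr9:75684057-75684306 on the minus strand and holds 17 CG. Apobec2, a muscle gene of the cytidine deaminase family (chr17:48432729-48432978, minus strand), holds 4, and Cnn1, the gene of the smooth muscle protein calponin 1 (chr9:22099003-22099252, plus strand), holds 3. Rec8, the meiotic cohesin subunit (chr14:55617916-55618165, plus strand), holds 10, and the stretch of Rap1gap (chr4:137724211-137724460, plus strand), which encodes an inactivator of the small GTPase RAP1, holds 5. Paxip1 (chr5:27791551-27791800, minus strand) holds 22 and Shox2 (chr3:66981772-66982021, minus strand) holds 11. The starts used for Scg3 (annotated gene chr9:75643366-75685959) and Rap1gap (chr4:137664711-137729861) lie inside the gene and are not the most upstream ones. Those used for Cnn1, Rec8 and Paxip1 also lie inside the gene, nearer to its upstream end (chr9:22099221-22109221, chr14:55618002-55625395 and chr5:27740080-27791672).

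The printed promoters do not separate the classes, as Scg3 holds more CG than Shox2 and Rec8 nearly as many. Across the promoter table, of 101 promoters whose start lay inside a KO-only region, 9 (8.91%) had an observed over expected CpG ratio of at least 0.6 in the 300 bases around the start, against 70.7% of 15877 promoters inside regions of both genotypes and 2.74% of 16295 promoters in no H3K4me3 region. The ratio is the number of CG times the length, divided by the numbers of C and of G. Its median was 0.333, 0.753 and 0.186 in the 3 sets, and the median number of CG was 7, 21 and 3. By these medians KO-only promoters lay between promoters inside regions of both genotypes and promoters in no H3K4me3 region. Of the 101 promoters 48 (47.5%) belonged to protein-coding genes and 53 to long noncoding RNA genes. The protein-coding share was 84.2% inside regions of both genotypes, 46.2% in no H3K4me3 region and 64.7% over all promoters.

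The members were spread unevenly over the KO lists. A peak in SSC and BCSP but not in pBCSP made up 2064 members (78%), all 3 KO lists held 331, pBCSP and BCSP alone 173, and SSC and pBCSP alone 78. The SSC KO and BCSP KO lists were the longest of the 6, with 42399 and 38500 peaks, and the pBCSP KO list was the shortest, with 25468. The WT lists held 33510 peaks in SSC, 28612 in pBCSP and 32132 in BCSP. List length moved with the calls. With the best 25468 peaks taken from every list by the authors' p-value, the rule found 861 KO-only and 797 WT-only regions. Only 237 of those 861 overlapped a member. The pattern over lists changed as well, with 360 of the 861 (41.8%) in pBCSP and BCSP alone. SSC and BCSP alone then held 189 (22%), SSC and pBCSP alone 161 (18.7%) and all 3 KO lists 151 (17.5%). Without the SSC KO list 511 regions met the rule, and without the BCSP KO list 406, whereas leaving out the pBCSP KO list left 2399. Leaving out a WT list gave 3556 regions without SSC, 3039 without pBCSP and 4237 without BCSP. Near the threshold, 10598 regions had a peak in 1 KO list and no WT list and 2881 in 2 or 3 KO lists and 1 WT list. Their median highest KO fold enrichment was 3.28 and 4.42, against 3.99 for the members.

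**Figure D1:**
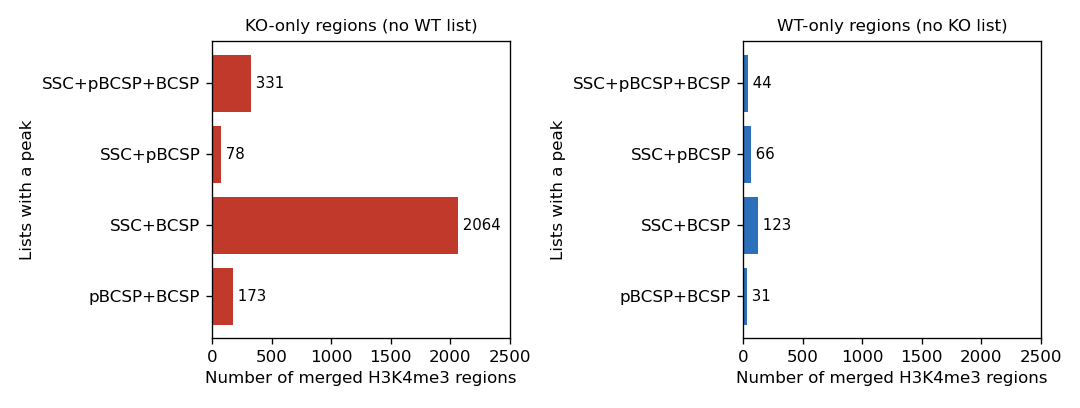
Number of merged H3K4me3 regions by the lists that hold a peak, for regions called only in KO (left) and only in WT (right). The bar of SSC and BCSP, 2064 regions, holds 78% of the KO-only regions, and no WT-only bar passes 123. With lists of equal length (not drawn) SSC and BCSP alone hold 22% of the KO-only regions.

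KO-only peaks were weak for their lists. Their median fold enrichment, as the authors gave it, was 3.22 in SSC KO (2.48 to 6.37), 3.69 in pBCSP KO (2.87 to 5.85) and 3.87 in BCSP KO (2.64 to 9.4). Peaks of regions called in both genotypes had medians of 10.1, 9.38 and 10.8 in the same lists, and those over 5000 bases from a start 5.45, 4.98 and 6.06. Ranked by the authors' p-value, the median KO-only peak stood at percentile 19.6 of the SSC KO list, 8.85 of the pBCSP KO list and 19.1 of the BCSP KO list. With a -log10 q of at least 5 asked of KO peaks and the WT lists kept whole, 59 regions met the rule. WT-only peaks were low too, with median folds of 3.27, 3.8 and 3.58 in SSC WT, pBCSP WT and BCSP WT.

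**Figure D2:**
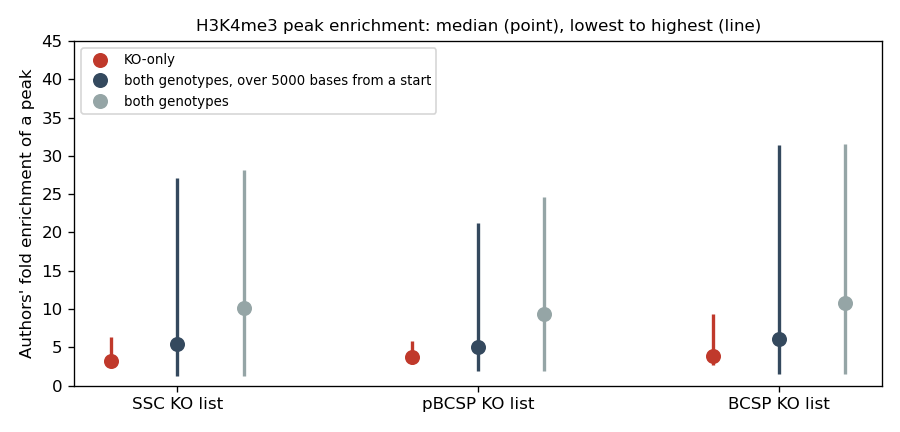
Authors' H3K4me3 fold enrichment of peaks in each KO list, as the median (point) and the lowest to highest value (line). Within each list the highest KO-only peak (6.37, 5.85 and 9.4) is below the median of regions called in both genotypes (10.1, 9.38 and 10.8).

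The strongest member by mean fold lay at chr15:25358687-25359244, 26342 bases from the nearest start, that of the noncoding RNA gene Gm36555. Its peak had a fold of 3.63 in SSC KO and 9.4 in BCSP KO, with -log10 q of 3.07 and 18.3, and none in pBCSP KO. The next was an intergenic region, chr7:127104778-127105171, 13342 bases from AI467606, with folds of 6.37 and 6.06. The third, chr9:75683488-75684803, covered a start of Scg3, with folds of 5.9 in SSC KO and 6.4 in BCSP KO. Of the 10 strongest, 1 had a peak in all 3 KO lists. It lay at chr12:72104664-72105252 inside Ccdc175, 18825 bases from a start of Jkamp, with folds of 5.42, 4.73 and 7.17 in SSC, pBCSP and BCSP. Other strong members lay near Bsn, which encodes a presynaptic scaffold, inside Zbtb16, a zinc finger factor, inside Grip1, a scaffold of glutamate receptors, and inside Hs1bp3. An H3K4me1 peak was present in at least 1 list at each of the 10, and an H3K27ac peak at none.

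Each of the 10 widest members overlapped a gene. The longest, chr3:64977227-64981249, spans 4023 bases inside Kcnab1, a potassium channel subunit, with H3K4me3 folds of 4.75 in SSC KO and 3 in BCSP KO. Apobec2 had a member of 2596 bases over its start (chr17:48430176-48432771), with folds of 3.5 and 5.36 and an H3K4me1 peak in all 6 lists. Another, chr1:184040184-184042968, lay inside Dusp10, a phosphatase that acts on stress-activated kinases, 5803 bases from its start, with folds of 3.95, 3.85 and 4.48 in SSC, pBCSP and BCSP. A member of 3176 bases, chr1:135324339-135327514, covered starts of Lmod1, a leiomodin of smooth muscle, and of the noncoding Gm41956. The remaining 6 overlapped Hivep2, Gas7, Il17rd, Hsd17b12, Eef2k and the noncoding Gm32098. Of these 10 widest members 8 had an H3K4me1 peak in all 6 lists.

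Most members were short and far from promoters. Their median width was 750 bases (quartiles 563 and 989, longest 4023), against 1800 for regions of both genotypes, 1220 for those of both over 5000 bases from a start, and 527 for WT-only regions. An annotated start lay inside 112 members and within 1000 bases of 201, that is 7.6% (95% Wilson interval 6.65% to 8.67%). Among regions of both genotypes the share was 54.5%, among WT-only regions 7.2% (interval 4.66% to 11%), and among all merged regions 32.6%. The median distance to the nearest start was 18836 bases. Over 5000 bases from any start lay 2140 members (80.9%), and 1632 (61.7%) overlapped a gene. Members seldom lay beside each other or beside a shared region: 143 (5.4%) had another member within 10000 bases, and 3.25% lay within 1000 bases of a region of both genotypes. Chromosome X held 51 members (1.93%), against 2.35% of all merged regions.

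**Figure D3:**
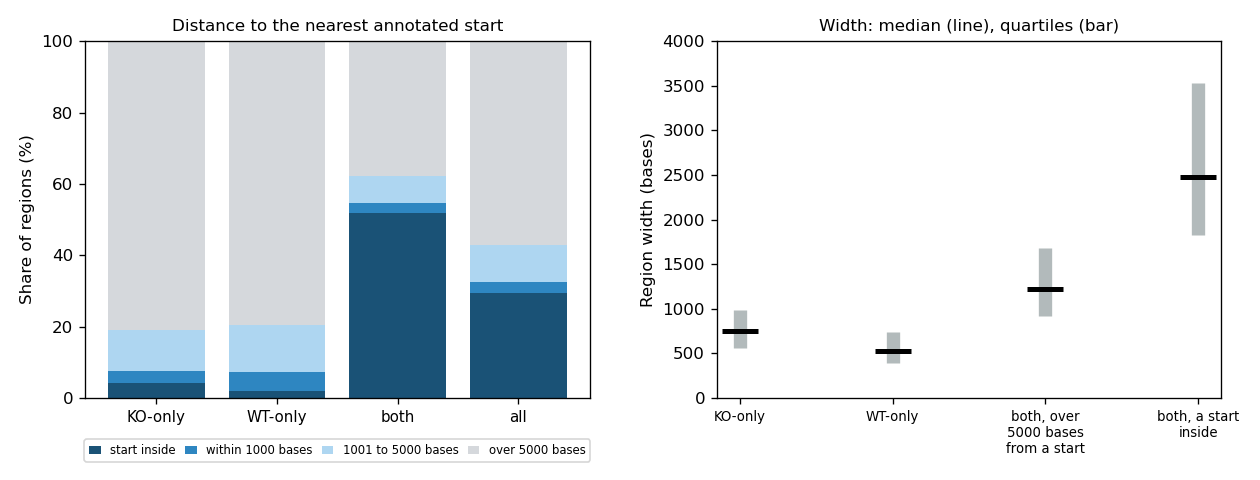
Left, share of regions by distance to the nearest annotated start; right, region width in bases, with the median as a line and the quartiles as a bar. KO-only regions resemble WT-only ones in position, with 7.6% and 7.2% within 1000 bases of a start, and regions of both genotypes are wider and nearer to starts.

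Most members carried H3K4me1 in both genotypes, as did most merged regions. An H3K4me1 peak overlapped 2412 members (91.2%) in at least 1 WT list and 1521 (57.5%) in all 6 lists, while 86 (3.25%) had none. Over all merged regions these shares were 91.9%, 65.2% and 3.52%. Only 92 members (3.48%) had H3K4me1 in 2 or 3 KO lists and in no WT list, against 2.58% of all merged regions. By library the share was 59.4% in SSC WT and 86.5% in SSC KO, 86.1% in pBCSP WT and 93% in pBCSP KO, and 86% in BCSP WT and 93.7% in BCSP KO. It was higher in KO in each population, and the groups did not overlap. The mean was 91.1% ± 3.99 in KO and 77.2% ± 15.4 in WT (SD, n = 3 libraries each), a difference of 13.9 percentage points with an exact two-sided permutation p of 0.1, the smallest 3 against 3 libraries allow.

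The H3K4me1 lists were themselves longer in KO, with 115704 peaks against 75277 in SSC, 137117 against 120792 in pBCSP and 148530 against 113313 in BCSP. Over all merged H3K4me3 regions the share with H3K4me1 was also higher in KO, by 9.61 points (exact permutation p = 0.2). The members' difference exceeded that over all regions by 4.28 points, with an exact two-sided permutation p of 0.2. With every H3K4me1 list cut to its best 75277 peaks, the shares of members were 59.4% and 72% in SSC WT and KO, 69.6% and 78.5% in pBCSP, and 71.4% and 79% in BCSP. The mean difference was then 9.67 points (exact permutation p = 0.1), against 2.49 over all regions and 1.78 over distal regions of both genotypes. WT-only regions went the other way at equal list length, from 59.5% to 53% in SSC, 63.6% to 48.1% in pBCSP and 53.8% to 42% in BCSP. With whole lists they did not, at 59.5% and 69.7% in SSC WT and KO, 76.5% and 74.2% in pBCSP, and 68.6% and 70.8% in BCSP. Their mean difference was then 3.41 points higher in KO (exact permutation p = 0.7), so their direction depended on list length.

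**Figure D4:**
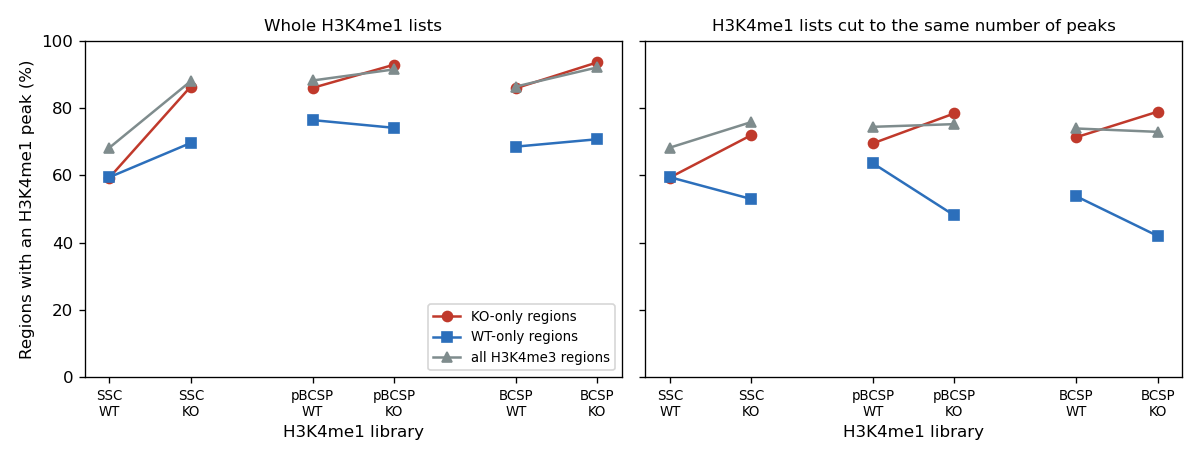
Share of regions with an H3K4me1 peak in each library, WT and KO joined by a line within a population, with whole lists (left) and lists of equal length (right). KO-only regions are higher in KO in 3 of 3 populations in both panels. WT-only regions are lower in KO in 3 of 3 in the right panel, but in pBCSP alone in the left.

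The H3K4me1 peaks over members were broad and well placed in their lists, as were those over all merged regions. Inside 1 H3K4me1 peak lay 78.6% of members in BCSP KO, 75.2% in pBCSP KO and 59.7% in SSC KO, against 57.8%, 61.7% and 25.1% in the matching WT lists. Over all merged regions these shares were 49.7%, 50.3% and 43% in KO and 37.9%, 44% and 21.8% in WT. Those regions were wider, with a median of 1040 bases against 750, so fewer of them could lie inside a peak of a given width. The best overlapping H3K4me1 peak had a median fold of 3.64 to 3.84 in the KO lists and 3.39 to 3.86 in the WT lists, so that height differed little while overlap and width differed more. In BCSP that peak had a median width of 1650 bases in WT and 2270 in KO, and in SSC 1140 and 1770. Over all merged regions it was 1430 and 1820 in BCSP and 1130 and 1660 in SSC, so it was wider in KO there too. Distal regions of both genotypes had an H3K4me1 peak somewhat more often than members in each of the 6 lists, from 73% in SSC WT to 94.2% in BCSP KO, but these regions were wider.

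H3K27ac was rare at members. The share with a peak ran from 0.0756% (2 of 2646, SSC WT, second set) to 6.95% (184, BCSP KO, first set). It was 0.34% in SSC KO in both sets against 0.227% and 0.0756% in SSC WT, and 3.02% and 0.378% in pBCSP KO against 2.91% and 1.47% in pBCSP WT. In BCSP KO it was 6.95% and 3.4%, against 2.12% and 0.227% in BCSP WT. KO was the higher in 5 of 6 pairs of libraries, by 1.23 points on average, and the permutation of genotype within pairs gave an exact two-sided p of 0.281, with 0.0312 the smallest it can give. BCSP lists differed in length in the same direction, with 8572 peaks in KO and 785 in WT in the second set. Over all merged regions the difference was 1.14 points, with 4 of 6 pairs higher in KO (exact permutation p = 0.781). Any H3K27ac list held a peak at 341 members (12.9%), against 22.4% of distal regions of both genotypes and 12.9% of WT-only regions.

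RNA was read in 12 libraries of 15495915 to 22670899 counts. Paxip1 itself was at 7.25 to 14.6 CPM (read counts scaled to a common library size) in the 6 WT libraries and at 0 to 3.48 in the 6 KO libraries, and its average KO minus WT difference was -4.52 ± 0.76 log2 (SE; edgeR quasi-likelihood test, Benjamini-Hochberg adjusted p = 0.0396). The sorted cells carried high levels of cartilage genes, summed over 24 chondrocyte markers to 46600 to 132000 CPM in WT and 90300 to 144000 in KO, and 12 of the 24 rose and 1 fell. Of the 5 sort markers tested, Cd200 stood at 198 to 303 CPM in SSC, 13.2 to 27.7 in pBCSP and 74.9 to 132 in BCSP. Eng (CD105), which marks BCSP, was at 25.1 to 34.3 in the SSC and pBCSP libraries. Its BCSP values were 168 and 127 for WT, against 85.2 and 72.8 for KO. Tek was highest in the WT libraries of BCSP, at 10.6 and 10.1, and at most 5.62 elsewhere. Itgav ranged from 16.5 to 71.7 and Enpep from 0 to 7.4 over the 12 libraries. None of the 5 passed an adjusted p of 0.05 on average (edgeR). Thy1 and Ptprc (CD45), also on the list of sort markers, did not pass the filter on low counts. Summed over 15 leukocyte markers the level was 5.67 to 40.5 CPM in WT and 22.2 to 85.4 in KO, over 13 erythroid markers 27.2 to 267 and 12.9 to 31.9, and over 14 immediate early genes 14500 to 20700 and 1180 to 19800. The part of these lists in the results below was not tested. SSC KO replicate 2 stands apart, with a read in 13987 genes against 20965 to 23831 in the other libraries, and results with and without it are given. Libraries of the same genotype and number deviated together across populations (correlations over genes of 0.223 to 0.254 in WT and 0.274 to 0.452 in KO), so the 6 libraries per genotype may not be independent and p-values of the average may be too small. With counts summed over the 3 populations of each number, which leaves 2 samples per genotype, edgeR called 0 genes, Paxip1 included, with 1505 at an unadjusted p under 0.05, and DESeq2 was not run on these sums. In such bulk samples fewer cells of a type and less RNA per cell cannot be told apart.

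Genes with a start within 1000 bases of a member were mostly silent or low. Of 212 such genes 67 (31.6%) passed the filter on low counts, against 77.6% of the genes at regions of both genotypes. The median level of the 67 was 1.06 CPM, against 15.2. They were kept because enough reads were present in some libraries, so their count is not one of all members. Of the 67, 1 rose and none fell past the threshold on average over the populations (1.49%, edgeR), against 1.17% of the 17494 genes tested in either direction, 0.966% upwards and 0.206% downwards. At an unadjusted p under 0.05 there were 17 (25.4%), of which 10 were lower in KO, against 19.6% of all genes (1932 higher and 1499 lower). DESeq2 called 11 of the 67 (16.4%) against 9.68% of all genes. In SSC, pBCSP or BCSP alone no gene at all passed edgeR's threshold (0% of 17494). Unadjusted, 8, 5 and 7 of the 67 were under 0.05 in SSC, pBCSP and BCSP, and DESeq2 called 3, 2 and 2. Of all genes 1643, 1096 and 1095 were under 0.05 unadjusted, and DESeq2 called 174, 99 and 123.

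Rap1gap was the gene that rose. Its RNA was at 17.1 and 11.4 CPM in SSC WT and 22.2 and 19.7 in SSC KO, 11.7 and 4 in pBCSP WT and 36.5 and 43.2 in pBCSP KO, and 6.26 and 3.77 in BCSP WT and 20.5 and 42.3 in BCSP KO. Every KO library was above every WT library. The average difference was 1.85 ± 0.33 log2 (SE, n = 6 libraries per genotype, edgeR adjusted p = 0.0472), made up of 0.56 in SSC, 2.34 in pBCSP and 2.64 in BCSP. Its member, chr4:137723313-137724193, had H3K4me3 folds of 2.64 in SSC KO and 4.13 in BCSP KO, no peak in pBCSP KO, and no H3K4me1 or H3K27ac peak in any list. It lay 268 bases from the start shown above. The call was lost in 12 of 18 other fits. Among them, with counts summed over the populations of one number, the difference was 1.85 and the adjusted p 0.591. It was kept without SSC KO replicate 2, without SSC KO replicate 1 and without BCSP KO replicate 1, and lost without any 1 of the other 9 RNA libraries. In 8 of those 9 fits no gene passed at all.

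The other genes of smallest p did not pass edgeR's threshold. With DESeq2 the adjusted p ran from 0.00059 (Aire) to 0.0319 (Otogl) for all of them but Gm11733 (0.116), so the outcome depended on the tool. Apod, an apolipoprotein, was lower in all 6 KO libraries than its WT mean, from 62.1 and 78.6 CPM in BCSP WT to 28.4 and 9.8 in BCSP KO (average -1.83 ± 0.42 log2, edgeR adjusted p = 0.0734). A member of 1780 bases covered its start. Tbx5, which specifies the forelimb, had a member 690 bases from a possible start, and its RNA went from 6.11 and 9.13 CPM in SSC WT to 22.7 and 44 in SSC KO, from 17 and 21.7 to 24.3 and 32 in pBCSP and from 7.94 and 9.55 to 9.75 and 24.4 in BCSP (1.21 ± 0.30 log2, edgeR adjusted p = 0.0866). Aire, the thymic autoimmune regulator, was at most 0.378 CPM in the 6 WT libraries and the 2 SSC KO libraries, and at 3.15, 11.1, 3.95 and 11.3 in pBCSP KO and BCSP KO (3.49 ± 0.87 log2, edgeR adjusted p = 0.0873). Its member overlaps both Aire and Dnmt3l, and reads of overlapping genes cannot be told apart where strand was not used. Plac1 was at 111, 86 and 27.6 CPM in the KO replicates 2 against 6.43 to 17.9 in the 3 KO replicates 1 and 7.04 to 11 in WT. C4b, whose reads may be shared with its near copy C4a, was at 19.1 to 79.3 CPM in KO and 11.5 to 37.2 in WT. Mef2b differed by -2.64 ± 0.65 log2 from a WT level of 0.641 to 2.09 CPM, and Otogl, Gm11733 and Bend7 were at 2.43 CPM or less in every library. Of these 10 genes, which were taken by smallest p, 7 were higher in KO on average and 3 lower (Apod, Mef2b and Bend7).

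At the other printed promoters of KO-only regions, RNA did not differ past the threshold. Scg3 was at 5.36 and 6.98 CPM in SSC WT, 1.59 and 0 in SSC KO, 3.21 and 2.92 in BCSP WT and 2.27 and 0 in BCSP KO (average -2.71 ± 1.12 log2, edgeR adjusted p = 0.226). Apobec2 was at 2.25 to 7.25 CPM in WT and 0 to 7.32 in KO, and Cnn1 at 1.56 to 29.6 in WT and 1.22 to 17.2 in KO. Rec8 was at 1.05 CPM or less in all 12 libraries. For these 3 the edgeR adjusted p was 0.964, 0.552 and 0.938.

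The median average log2 difference of the 67 genes was -0.42, against -0.09 over all genes tested and -0.08 at regions of both genotypes, while the share below 0 was 55.2%, against 55.3% of all genes tested. By population the median was -0.70 in SSC, -0.19 in pBCSP and -0.42 in BCSP, against -0.22, -0.03 and -0.01 over all genes. The median difference of the 67 from the WT mean was 0.24, 0.19 and -0.08 in the first KO libraries of the 3 populations (SSC, pBCSP, BCSP in that order), and -2.83, -0.68 and -0.70 in the second. Over all genes tested it was -0.04, -0.02 and 0.00 for KO replicate 1 and -0.74, -0.05 and -0.06 for replicate 2, so the 67 lay above all genes in SSC and pBCSP KO replicate 1 and below them in the other 4. Without SSC KO replicate 2 the median was -0.25, and without SSC KO replicate 1, where replicate 2 alone stands for SSC KO, it was -1.78. Leaving out another library gave -0.67 to -0.06.

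Assigning each member to the gene with the nearest start, at any distance, gave 2350 genes, of which 1087 (46.3%) were tested. Of these 10 rose and 5 fell past the threshold (1.38%), close to the 1.17% of all genes, and DESeq2 called 129 (11.9%). The median difference was -0.29, and the 6 KO libraries gave -0.09, -1.21, -0.10, -0.42, -0.16 and -0.62 for SSC 1 and 2, pBCSP 1 and 2 and BCSP 1 and 2. All 6 were below the median over all genes of the same library, which ran from -0.74 to 0.00. Of the 1087 genes 64.5% had a difference below 0, against 55.3% of all genes tested. Genes with a member inside, 1487 of which 1002 were tested, had 12 that rose and 3 that fell (1.5%) and a median of -0.30. Of all genes tested 1.17% passed, and there too more rose (0.966%) than fell (0.206%). For genes nearest to a distal region of both genotypes the median was -0.19, with 32 that rose and 15 that fell of 3237 (1.45%).

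**Figure D5:**
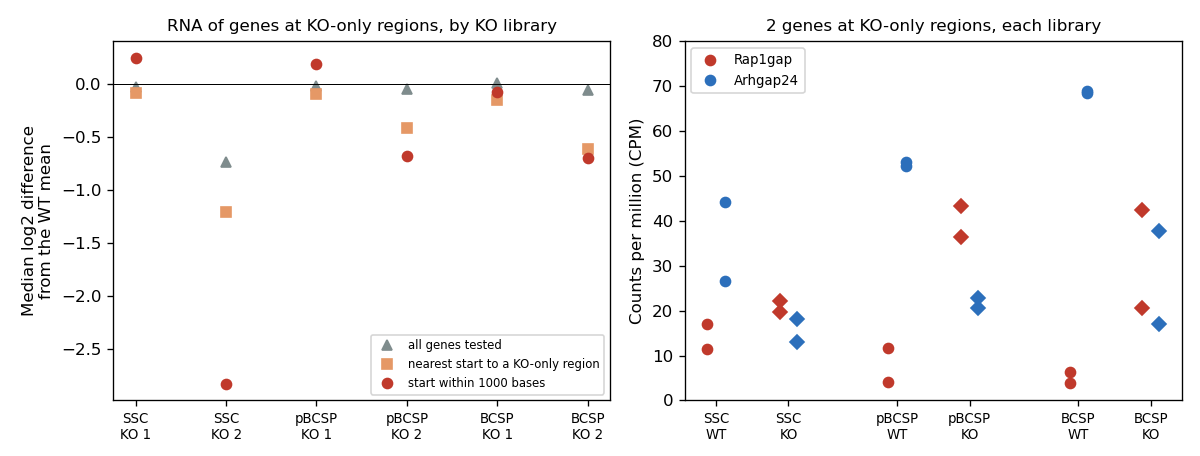
Left, median log2 difference of each KO library from its population's WT mean for genes at KO-only regions and for all genes tested; right, CPM of Rap1gap and Arhgap24 in each library (circles WT, diamonds KO). Medians of genes with a start within 1000 bases are -2.83, -0.68 and -0.70 in the second KO replicates. Within each population the 2 genes separate the genotypes in opposite directions.

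The genes past the threshold that were nearest to or held a member were 19 in all and are named here after their values were seen. P4ha1, the catalytic subunit of the prolyl hydroxylase that matures collagen, rose from 386 and 354 CPM to 932 and 857 in SSC, from 344 and 328 to 876 and 1050 in pBCSP and from 261 and 247 to 803 and 1110 in BCSP (1.57 ± 0.14 log2, edgeR adjusted p = 0.0206). No KO value overlapped WT. A member of 779 bases lay inside the gene at chr10:59334611-59335389, 11315 bases from a start, with H3K4me1 in all 6 lists. Pxylp1, a phosphatase of proteoglycan chain synthesis, rose from 35.6 to 103 CPM in WT to 109 to 290 in KO, with 2 members inside. Veph1 rose from 0.216 to 0.838 CPM to 2.43 to 10.8, and Gprasp2 from 2.65 to 7.64 to 17.6 to 25.5. Mgmt, the enzyme that removes alkyl groups from guanine, held 3 members and rose from 1.25 to 8.28 CPM to 10.3 to 21.2. Scube2, a secreted factor that helps release hedgehog ligands, had a member inside and another 13330 bases from its start, and rose by 1.73 ± 0.27 log2 with 1 BCSP KO library, at 30.7 CPM, below its WT values of 36.5 and 31.4. Cbr2, a carbonyl reductase, held a member 1850 bases from a start and rose from 3.82 to 9.8 CPM to 13.5 to 32. Aff3, Gm973, Ldlrad3, Lsp1, Sorbs2 and Tpd52l1 rose too, with Ldlrad3 the least, by 0.84 log2.

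The 5 that fell were Galnt15, Lifr, Arhgap24, Plpp1 and Col5a1. Galnt15, an enzyme that starts O-glycans, was at 5.28 to 12.4 CPM in WT and 0 to 0.97 in KO. The member lay 11542 bases from its start, outside the gene. Lifr, the receptor of leukemia inhibitory factor, went from 134 to 484 CPM in WT to 49.5 to 191 in KO, overlapping across populations but lower than the WT mean in all 6. Arhgap24 held 5 members and went from 26.6 and 44.1 CPM to 18.2 and 12.9 in SSC, from 53.1 and 52.3 to 20.5 and 22.7 in pBCSP and from 68.9 and 68.4 to 37.8 and 17 in BCSP (-1.27 ± 0.24 log2, edgeR adjusted p = 0.049). Col5a1, a collagen of fibril assembly, had a member of 1977 bases with a peak in all 3 KO lists 44394 bases from its start, and fell by 0.94 on the log2 scale. Each of the 19 calls was kept in 4 to 8 of 18 other fits and lost in the rest, and with counts summed over populations each had an edgeR adjusted p of 0.591.

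Among the genes that held most members, 1 rose and 1 fell. Atp8a2, a phospholipid flippase, Itga9, an integrin, Creb5, Aff3 and Arhgap24 held 5 each, 15 genes held at least 4, and 210 at least 2. Aff3 rose from 20.7 to 44.1 CPM in WT to 36.6 to 95.7 in KO (1.05 ± 0.20 log2, edgeR adjusted p = 0.0494), while Arhgap24 fell as given above. Atp8a2 (0.78 ± 0.36 log2), Itga9 (-0.43 ± 0.38) and Creb5 (-0.44 ± 0.26) did not pass. The 5 members in Aff3 lay from chr1:38259939 to chr1:38589533, and 4 of them had H3K4me1 in all 6 lists. Of 14 tested genes with at least 4 members, 2 passed and 10 (71.4%) had a difference below 0. Over all genes tested 1.17% passed and 55.3% were below 0, and 14 genes are too few to set these shares apart. Numbers of members were not adjusted for gene length, and some of these genes are very long, such as Rbms3 (chr9:116572746-117629913).

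Few genes of the skeletal lists had a start next to a member, as did few genes of any kind. Of 87 developmental transcription factors, 1 (Barhl1) had a start within 1000 bases of a member, and of 23 genes of skeletal progenitors and limb mesenchyme 1 (Tbx5), whereas 81 and 20 had a start within 1000 bases of a region of both genotypes. These are 1.15% and 4.35% of their lists, on 1 gene each, against 0.425% of all protein-coding genes. None of 24 chondrocyte, 14 osteoblast, 39 Hox, 26 H3K4 methylation or 21 glycolysis genes did. A member had its nearest start at 2 of the 14 osteoblast genes (Spp1, 8780 bases away, and Dlx5, 2698 bases away, 14.3%). Among the 23 progenitor genes there were 2 (Tbx5, 690 bases away, and Shox2, 234270 bases away, 8.7%). The same held for 1 of 12 hypertrophic chondrocyte genes (Spp1, 8.33%) and 0 of 24 chondrocyte genes, against 5.51% of all protein-coding genes. Lists of other cell types ranged as widely, with 3 of 18 skeletal muscle genes (16.7%), 2 of 16 neuron genes (12.5%) and 0 of 15 leukocyte and 13 erythroid genes. A member lay inside 1 of the 14 osteoblast genes (Runx2, 7.14%) and 1 of the 24 chondrocyte genes (Sox6, 4.17%). The share was 5.04% of all protein-coding genes, without adjustment for gene length. Members lay inside Runx2, the master factor of osteoblasts, at chr17:44520092-44520894 and chr17:44592029-44593054. The second had peaks in all 3 KO lists (folds 3.57, 3.79 and 3.85), and both had H3K4me1 in all 6 lists. Runx2 RNA was at 14.1 to 51.9 CPM in WT and 26.7 to 61.6 in KO (0.69 ± 0.27 log2, edgeR adjusted p = 0.208). Sox6, a partner of SOX9 in cartilage, held 1 member and was at 29.7 to 71.2 CPM in WT and 71.9 to 111 in KO. Every KO library was above every WT library (0.76 ± 0.17 log2, edgeR adjusted p = 0.0727, DESeq2 adjusted p = 0.00627).

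Among the genes that write, bind or erase H3K4 methylation, 25 were tested, and 1 fell past the threshold, Paxip1 itself, while none rose. Their median difference was -0.29, against -0.09 over all genes. Smyd3, a SET domain methyltransferase that holds a member, was at 17.7 to 27.5 CPM in WT and 30.9 to 49.5 in KO. Its difference was 0.78 ± 0.19 log2 (edgeR adjusted p = 0.0775, DESeq2 adjusted p = 0.00308). Kmt2d, the partner enzyme of PTIP, differed by -0.43 ± 0.30 in SSC, -0.02 ± 0.29 in pBCSP and -0.40 ± 0.29 in BCSP.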

How the data were processed

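RNA-seq and ChIP-seq of 3 sorted populations from 2 genotypes were used, 48 samples in all, of which 12 input libraries were not analysed here. Per the submitters' processing notes, the tools were Trim Galore 0.6.6, Bowtie2 2.3.5.1, SAMtools 1.9, MACS2 2.2.6 and featureCounts 2.0.1, on GRCm38. For settings, strand mode, cutoffs and annotation: not given in the sources used here. Deposited RNA values are raw counts per gene. The authors deposited 1 peak list per ChIP library, with a fold enrichment (ratio over background), a -log10 p and a -log10 q per peak, and a display score. H3K27ac set 1 and both H3K4 marks have the broad layout, and H3K27ac set 2 the narrow one.

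Members and gene lists were chosen with earlier results of these data known. Starts came from RefSeq, as 27025 genes with known strand and both ends of 7602 genes without one, and 16084 of the 17494 tested genes (91.9%) matched by name. For RNA, edgeR 4.0.16 and its quasi-likelihood test (limma 3.58.1, R 4.3.3) were run on all 12 libraries with 1 term per group, filterByExpr, TMM and an adjusted p under 0.05. The average contrast weights the 3 populations equally. DESeq2 1.42.0 was an alternative, and the code was tested on simulated data. Shares have Wilson 95% intervals, which cover counting error only. A count of 0 allows up to 3 counts, or 0.134 to 0.208 CPM by library. Same-numbered KO and WT libraries did not deviate together (correlations 0.0142, -0.0209 and -0.0667), so numbers were not used as pairs across genotypes. Those of one genotype did across populations (0.223 to 0.452), and a fit on counts summed over populations was added after the data were seen. The named regions are the 10 of highest mean fold enrichment and the 10 widest. The named genes are, as fewer than 5 passed, the 10 of smallest p with a start within 1000 bases, plus listed genes with such a start. Genes nearest to or holding a member, and the printed promoters, were added after their values were seen. Sequences of members away from starts are not printed because no genome was used here.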

Additional observations from a re-analysis of the deposited data

How the results depend on the processing

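Counts of regions and of called genes moved with the processing, while the H3K4me1 and H3K27ac differences kept their direction under every alternative run (9.67 to 21.5 and 0.29 to 1.91 percentage points). With equally long H3K4me3 lists 861 regions met the rule (median width 862 bases, 10.3% within 1000 bases of a start). With a -log10 q of at least 5 in all lists there were 1582 (1005 bases, 16.6%). That limit also removed WT peaks, and only 58 of the 2646 members overlapped those 1582. The mirror rule then gave 105 WT-only regions. With that limit in KO lists alone there were 59 (646 bases), and with a peak in all 3 KO lists 331 (874 bases). Leaving out 1 H3K4me3 library gave 406 to 4237 regions and 7.4% to 8.8% at a start. The share was 4.23% with the start inside, 19.1% within 5000 bases and 5.9% with starts of known strand.

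The number of genes at members past the threshold, 1 as reported, was 0 under each of those 4 region rules, 0 with the start inside, 2 within 5000 bases, 15 by nearest start and 15 by gene body. It was 11 of 67 with DESeq2, which called 9.68% of all genes. With no filter on low counts it was 14 of 127, where 5.78% of all genes passed. It was 0 with pBCSP and BCSP alone or with counts summed over the populations of one number, where no gene passed. Leaving out 1 RNA library gave 0 to 22, the highest without SSC KO replicate 1, where 6147 genes passed in all. The median difference ran from -1.78 to -0.064, and from -4.75 to 0 in SSC. It was 1.52 over the 2 genes left with the limit on q in KO lists. The medians in pBCSP and BCSP ran from -0.74 to 0.06 and from -0.83 to -0.12. For the H3K4 methylation genes the count was 2 with DESeq2, 0 with pBCSP and BCSP alone or summed counts and 0 to 13 with 1 library left out. The cause of these moves was not tested.

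With the replicate number as a block, 0 genes at members and 141 of all genes passed, and the median was -0.39. KO and WT samples of one number do not deviate together. A test of whether the difference varied between populations (edgeR interaction term) found 0 of 17494 genes, with 240 at an unadjusted p under 0.05. No DESeq2 fit of this term was run. With 1 library per H3K4 mark, population and genotype, peak calls have no replicate check within a population.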
